A study of Homo sapiens with 6 samples.

Results

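miR-708 and miR-28 are intronic microRNAs (miRNAs) whose 5p strands are known to share a seed. The 4 mature names miR-708-5p, miR-708-3p, miR-28-5p and miR-28-3p were taken by name from a table of 2656 mature human miRNAs. All 4 were listed, and 3 of them were among the 783 miRNAs abundant enough to test. miR-708-3p was not. They were selected on measured values: miR-708-5p was already known to have one of the most negative fold changes between the groups. The difference between the groups is therefore given for the members as a description, without a p-value.

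The 6 small RNA libraries were made from KPL4, a human line of breast adenocarcinoma cells. Of these, 3 came from cells with a knockout of ERβ, the estrogen receptor that ESR2 encodes, called knockout libraries S1, S2 and 3. The other 3 came from ERβ knockout cells with transfected ERβ, called ERβ libraries 1, 2 and 3. Both groups thus carry the knockout, and both were grown in medium with 7% fetal bovine serum, 5 μg/mL insulin and 1 μg/mL hydrocortisone, a glucocorticoid, with no other treatment named. Knockout cells with an empty vector are not among the samples, and the sources used here do not give the clone of origin or the vector's promoter. Transfection, clone and ERβ itself therefore cannot be told apart.

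A miRNA hairpin yields a 5p and a 3p strand, and either can be loaded into an Argonaute protein. Bases 2 to 8 of the loaded strand, the seed, pair with target messenger RNAs, so strands with 1 seed are expected to share many predicted targets. The miR-708 hairpin and its host gene TENM4, also known as ODZ4, are induced together by CHOP, a transcription factor of endoplasmic reticulum stress. miR-708 is known in breast cancer as a suppressor of migration that targets neuronatin, a regulator of calcium in the endoplasmic reticulum. miR-28 lies in LPP, which encodes a protein of focal adhesions. miR-28-5p is known to target NFE2L2, the gene of the antioxidant factor NRF2, in breast cancer cells.

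The miR-708 hairpin lies on the minus strand of chromosome 11 (79402022 to 79402109, GRCh38, GENCODE release 29), in intron 1 of the principal TENM4 transcript with 34 exons. It overlapped no exon of the 3 TENM4 transcripts that span it. The miR-28 hairpin lies on the plus strand of chromosome 3 (188688781 to 188688866), in intron 6 of a principal LPP transcript with 11 exons, and overlapped no exon of the 6 LPP transcripts around it. Both hairpins have the same orientation as their host. Small RNA libraries hold no reads of the hosts' messenger RNA.

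The sequences below show the seeds of the miR-708 strands, of miR-28-3p and of miR-3139, a further miRNA with the seed of miR-708-5p. They are from RefSeq on GRCh38.p14, 5′ to 3′, with bases 2 to 8 in capitals. Of the 4 members, 3 were matched there by name.
miR-708-5p: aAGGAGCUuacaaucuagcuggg
miR-708-3p: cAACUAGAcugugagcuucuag
miR-28-3p: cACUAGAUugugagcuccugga
miR-3139: uAGGAGCUcaacagaugccuguu
They lie at chr11:79402077-79402099 (minus strand), chr11:79402032-79402053 (minus strand), chr3:188688834-188688855 (plus strand) and chr4:143343469-143343491 (plus strand). The 2370 mature sequences searched held no entry for miR-28-5p, so the counts of this seed leave it out. They are also fewer than the 2656 names of the count table, so the counts can leave out further names. Among them only miR-708-5p and miR-3139 had AGGAGCU at bases 2 to 8 (0.0844%), and 8 (0.338%) held these letters anywhere. The 8 do not include miR-151a-5p or miR-151b, although the miR-151b hairpin shown further below holds these letters. The seeds of the 3p strands, AACUAGA and ACUAGAU, were each found at bases 2 to 8 of 1 mature sequence. The 3p strands are nevertheless alike: a global alignment placed 18 identical bases in 23 columns, with the run UGUGAGCU starting at base 10 of miR-708-3p and base 9 of miR-28-3p. miR-3139 shares with miR-708-5p no run longer than the 7 bases of the seed.

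Total counts were 10288415 to 14296902 per library. Knockout library S2 stood apart: over the tested miRNAs, chi-square divided by its degrees of freedom was 307 and 331 against the other knockout libraries, where all other pairs within a group had 12.2 to 21.2. The members' fold changes, strand shares and profile distances are given with and without it. Epithelial markers were abundant, miR-141-3p at 24510 to 35580 CPM (counts scaled to library size with TMM factors), miR-200a-3p at 21917 to 28517 CPM and miR-200c-3p at 10996 to 15009 CPM. Of 7 epithelial markers, all tested, 1 was called higher with ERβ, miR-205-5p, and 3 lower, miR-141-3p, miR-200c-3p and miR-203a-3p. Of 3 luminal breast markers, all tested, 0 were called higher and 2 lower. Of 18 markers of blood, endothelial, stromal, muscle, neural and liver cells, 9 were tested, 0 were called higher and 3 lower. Over all tested miRNAs 9.83% were called higher and 13.3% lower at a Benjamini-Hochberg adjusted p of 0.05 in edgeR's quasi-likelihood test. The summed level of the 18 markers of other cells was 21483 to 22206 CPM in knockout and 17861 to 19038 CPM in ERβ libraries. Most of it was miR-126-3p and miR-128-3p, while miR-124-3p and miR-206 were at or below 0.102 CPM. The part of such cells in the values below was not tested. Labels do not say that replicates were separate cultures, so errors and p-values describe only the spread between these samples.

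miR-708-5p was the member that differed between the groups. It was at 26.6, 18 and 25.4 CPM in knockout libraries S1, S2 and 3, and at 6.13, 5.08 and 6.08 CPM in ERβ libraries 1, 2 and 3. Every knockout library lay above every ERβ library, where the groups did not overlap, in either direction, for 39.8% of tested miRNAs. S2 was the lowest of the knockout libraries. These levels rest on 218 to 293 counts per knockout library and 68 to 90 per ERβ library. The mean went from 23.4 ± 4.67 to 5.76 ± 0.593 CPM (SD, n = 3 per group), and edgeR's fitted log2 fold change, ERβ over knockout, was -2.02 ± 0.18 (SE), or 4.05-fold lower. Without knockout library S2 the knockout mean was 26.0 CPM and the log2 fold change -2.18 ± 0.12. The spread among knockout libraries, a coefficient of variation of 20.0%, exceeded the 6.28% of counting alone. Among the ERβ libraries it was 10.3%, against 11.3% from counting.

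Its fold change was the third most negative of the 783 tested. The next more negative value was that of miR-1-3p (-2.67 ± 0.33) and the next less negative that of miR-296-5p (-1.87 ± 0.40), both less abundant, with knockout means of 3.35 and 1.43 CPM. In abundance miR-708-5p was a middling miRNA, higher on average than 56.1% of the tested ones. It was the 1 of 3 tested members beyond the calling threshold, where 13.3% of all tested miRNAs were called lower and 23.1% in either direction. Its selection on this contrast fixed that count. The count of calls itself varied with the libraries: 104 were lower and 77 higher in all, against 157 and 122 without knockout library S2, 58 and 53 without ERβ library 1, 60 and 52 without ERβ library 2, and 62 and 49 without ERβ library 3.

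miR-708-3p, the minor strand of the same hairpin, was near the limit of detection. It had 15, 16 and 8 counts in knockout libraries S1, S2 and 3 (1.36, 1.32 and 0.814 CPM), and 4, 5 and 8 in ERβ libraries 1, 2 and 3 (0.360, 0.334 and 0.541 CPM). The groups did not overlap after scaling, as was the case for 39.8% of tested miRNAs, although knockout library 3 and ERβ library 3 had the same count. Its exact 95% Poisson interval in each of these was 3.45 to 15.8 counts. Summed over libraries, 39 counts stood against 17, a ratio of rates of 0.351 (exact 95% interval 0.186 to 0.636, counting error only). As a log2 ratio of pooled rates this is -1.51. Without knockout library S2 it was -1.41, with a knockout mean of 1.09 CPM. The filter on low counts required 10 counts at the median library size in 3 libraries, which miR-708-3p reached in 2, so it was not tested. Without that filter its fitted log2 fold change was -1.43 ± 0.47 (SE).

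**Figure D1:**
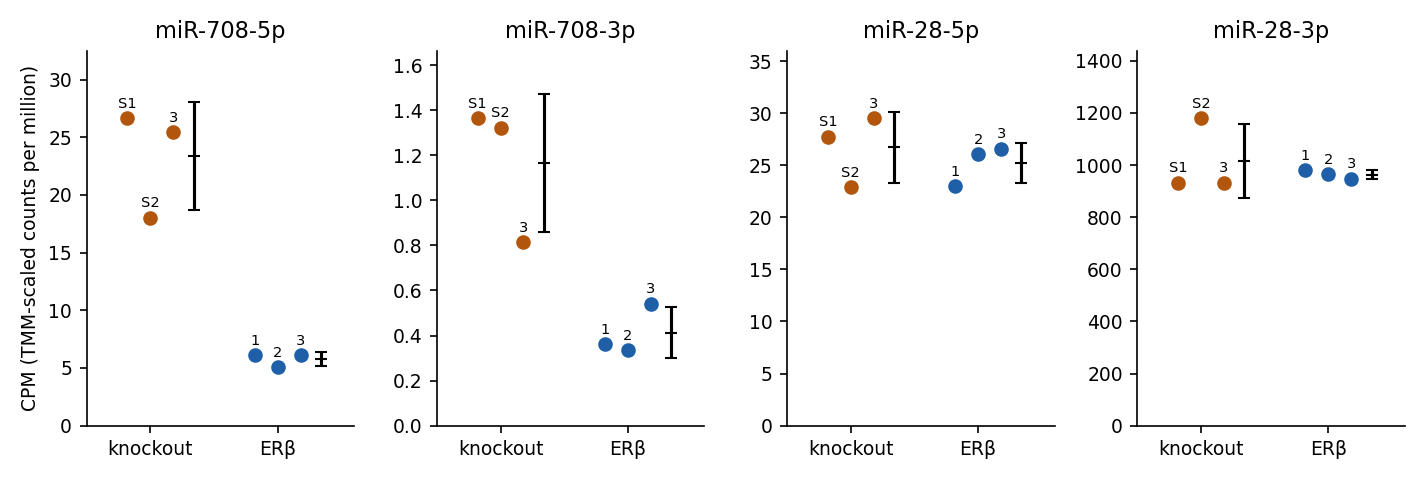
Levels of the 4 members in CPM (TMM-scaled, linear axes from 0) in each knockout (orange) and ERβ (blue) library, labelled by name. Black bars are mean ± SD of 3 libraries. Both miR-708 strands were lower in all 3 ERβ libraries than in any knockout library, while the groups overlapped for both miR-28 strands.

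miR-28-5p, which has the seed of miR-708-5p, was at 27.7, 22.9 and 29.5 CPM in the knockout and 23.0, 26.1 and 26.6 CPM in the ERβ libraries. The groups overlapped, with knockout library S2 and ERβ library 1 at the bottom. The means were 26.7 ± 3.42 and 25.2 ± 1.95 CPM (SD, n = 3 per group) and the log2 fold change was -0.08 ± 0.12 (SE). Without knockout library S2 the knockout mean was 28.6 CPM and the log2 fold change -0.17 ± 0.10, without ERβ library 1 it was 0.01 ± 0.14, and it was 0.03 with upper-quartile scaling and 0.08 with library totals.

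miR-28-3p was the most abundant member, higher than 88.5% of tested miRNAs. It was at 932, 1179 and 932 CPM in the knockout and 979, 964 and 947 CPM in the ERβ libraries. Knockout library S2 was the highest, and all 3 ERβ libraries lay between it and the other knockout libraries. The means were 1014 ± 143 and 963 ± 16.1 CPM (SD, n = 3 per group), with a log2 fold change of -0.07 ± 0.10 (SE) that was 0.05 ± 0.04 without knockout library S2, where the knockout mean of 932 CPM lay below the ERβ mean, and 0.04 and 0.08 with upper-quartile scaling and library totals. These scalings moved the median of all tested miRNAs, which was -0.01, by 0.11 and 0.15, so relative to that median the miR-28 strands moved little. The smallness of these values does not show that miR-28 was equal in the groups.

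**Figure D2:**
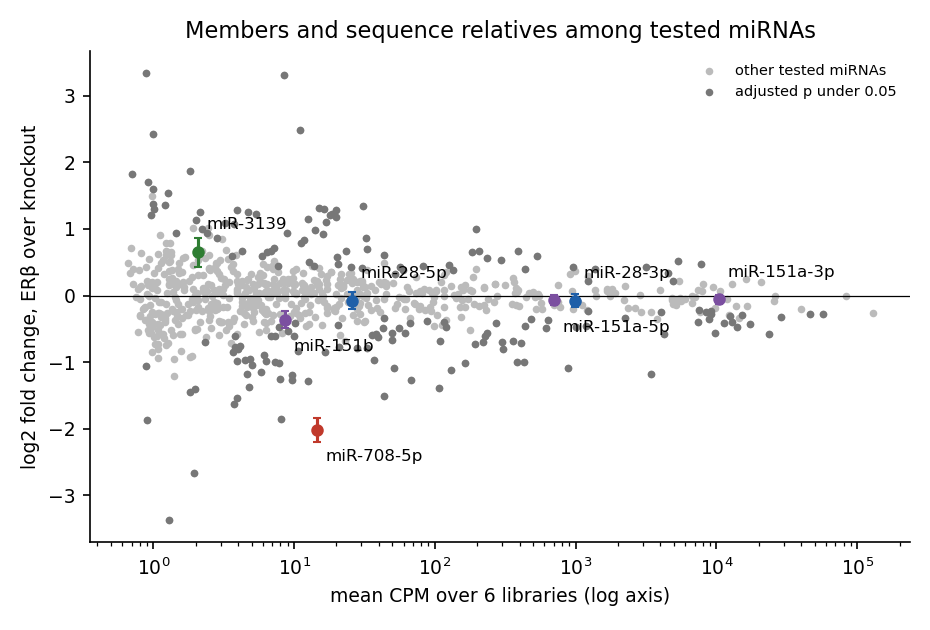
Log2 fold change, ERβ over knockout, of 783 tested miRNAs against their mean CPM over 6 libraries (log axis), with SE bars on the named points. Dark grey points passed an adjusted p of 0.05 in edgeR. miR-708-5p lies at -2.02, while both miR-28 strands and both miR-151a strands lie within 0.08 of 0 and take the opposite sign with upper-quartile scaling or library totals.

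The shared seed was carried by the major strand of miR-708 and by the minor strand of miR-28. miR-708-5p outnumbered miR-708-3p by 18.9, 13.2 and 29.5-fold in the knockout and by 15.2, 13.9 and 10.6-fold in the ERβ libraries (counts with 0.5 added). The mean log2 ratio was 4.0 ± 0.51 (SD, n = 6 libraries), positive in 6 of 6. In the miR-28 hairpin the 3p strand led instead. It outnumbered miR-28-5p by 33.6, 51.4 and 31.5-fold in the knockout and by 42.5, 36.9 and 35.6-fold in the ERβ libraries. The mean log2 ratio of 3p to 5p was 5.25 ± 0.26 (SD, n = 6), again positive in 6 of 6 (exact two-sided sign-flip permutation test, p = 0.03125, adjusted p = 0.03125 over 4 ratios). This is the smallest p that 6 libraries allow. A miRNA is read whole, so counts were compared without division by length. Ligation can favour some sequences, and its part in these ratios was not tested.

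The 5p strand made up 95.1% of miR-708 counts in knockout (95% Wilson interval 93.4 to 96.4%) and 93.2% in ERβ cells (89.4 to 95.7%), summed over 3 libraries each. These intervals overlap, but with 39 and 17 counts of miR-708-3p they cannot show that its strands changed equally. The mean log2 ratio of miR-708-5p to miR-708-3p was 4.28 ± 0.58 in knockout and 3.71 ± 0.27 in ERβ libraries (SD, n = 3 each). For miR-28 the 5p strand made up 2.52% (2.36 to 2.69%) and 2.57% (2.42 to 2.73%). Library S2 again stood apart, at 1.90% (1.69 to 2.14%) against 2.89% and 3.07% in the other knockout libraries, which together gave 2.97% (2.75 to 3.22%), above the interval of the ERβ cells. These intervals on summed counts cover counting error only, not the spread between libraries. The intervals of single libraries S1 (2.59 to 3.23%) and ERβ library 3 (2.48 to 3.01%) overlap. Without S2 the miR-708 share in knockout was 95.9% (94.0 to 97.3%). A lead of the 3p strand was common: it led in 88 of 209 hairpin names with both strands tested, and 27, miR-28 itself included, were at least as skewed to 3p as miR-28. The log2 fold changes of the miR-28 strands, 5p minus 3p, differed by -0.00443, where the median size of this difference over the 209 names was 0.17. That closeness rested on the full set of libraries: without knockout library S2 the difference was -0.22, without S1 0.082, without knockout library 3 0.13, and without ERβ library 1, 2 or 3 it was 0.070, -0.027 or -0.057. Of these 209 names, 45 had at least 1 strand called lower and 11 had both, while 1 had strands called in opposite directions.

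**Figure D3:**
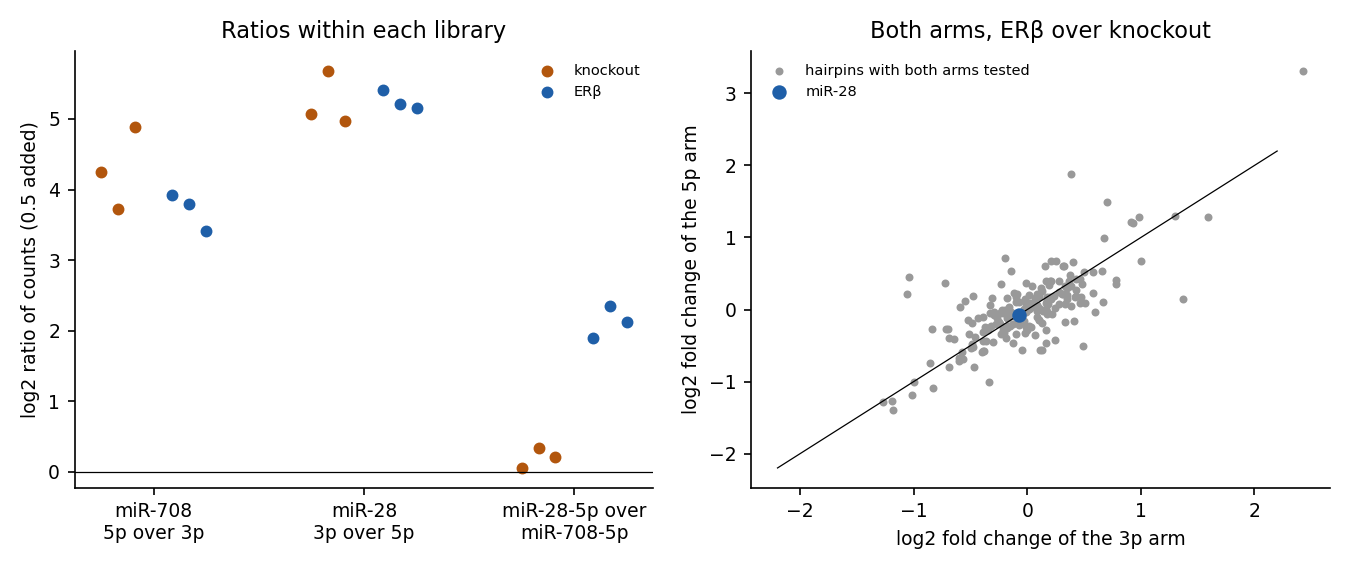
Left, log2 ratios of counts within each library, knockout in orange and ERβ in blue, from left to right in the order S1, S2, 3, 1, 2, 3: miR-708-5p led its hairpin by 10.6 to 29.5-fold and miR-28-3p led its own by 31.5 to 51.4-fold. Right, log2 fold changes of the 5p and 3p strands, ERβ over knockout, of 209 hairpin names with both strands tested, where the line marks equal values and miR-28 lies near the origin.

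In the knockout cells the same-seed strands of the hairpins were nearly level. miR-28-5p exceeded miR-708-5p by 1.04, 1.27 and 1.16-fold in knockout libraries S1, S2 and 3. In ERβ libraries 1, 2 and 3 it did so by 3.73, 5.11 and 4.35-fold. The mean log2 ratio was 0.21 ± 0.14 in knockout and 2.12 ± 0.23 in ERβ libraries (SD, n = 3 each). It was positive in 6 of 6 libraries. The difference between the groups restates the values by which miR-708-5p was chosen. miR-28-3p exceeded miR-708-3p by 661 to 1078-fold in knockout and 1648 to 2622-fold in ERβ libraries, with a mean log2 ratio of 10.41 ± 0.81 (SD, n = 6), positive in 6 of 6. No p-value is given for these ratios or for that of the miR-708 strands, since they contain the selected values.

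Adding miR-3139 gives a pool of 3 tested strands known to carry this seed. The pool held 55.9, 42.4 and 56.8 CPM in the knockout and 31.4, 33.9 and 35.2 CPM in the ERβ libraries, or 51.7 ± 8.06 and 33.5 ± 1.96 CPM (SD, n = 3 each). Without knockout library S2 the knockout mean was 56.3 CPM. miR-708-5p, selected for its lower level with ERβ, accounts for 17.6 CPM of the difference of 18.2 CPM in the means, so these pool levels and shares restate the selection. miR-708-5p made up 47.6%, 42.5% and 44.8% of it in the knockout and 19.5%, 15% and 17.3% in the ERβ libraries. The share of miR-28-5p went from 51.9 ± 2.2% to 75.2 ± 1.83% (SD, n = 3 each). miR-3139 had few counts, 17 to 18 per knockout library and 25 to 41 per ERβ library, and means of 1.62 ± 0.184 and 2.52 ± 0.248 CPM. It did not pass the test (log2 fold change 0.65 ± 0.22, edgeR, Benjamini-Hochberg adjusted p = 0.0621), although it passed with upper-quartile scaling (adjusted p = 0.0332) and library totals (0.0224).

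**Figure D4:**
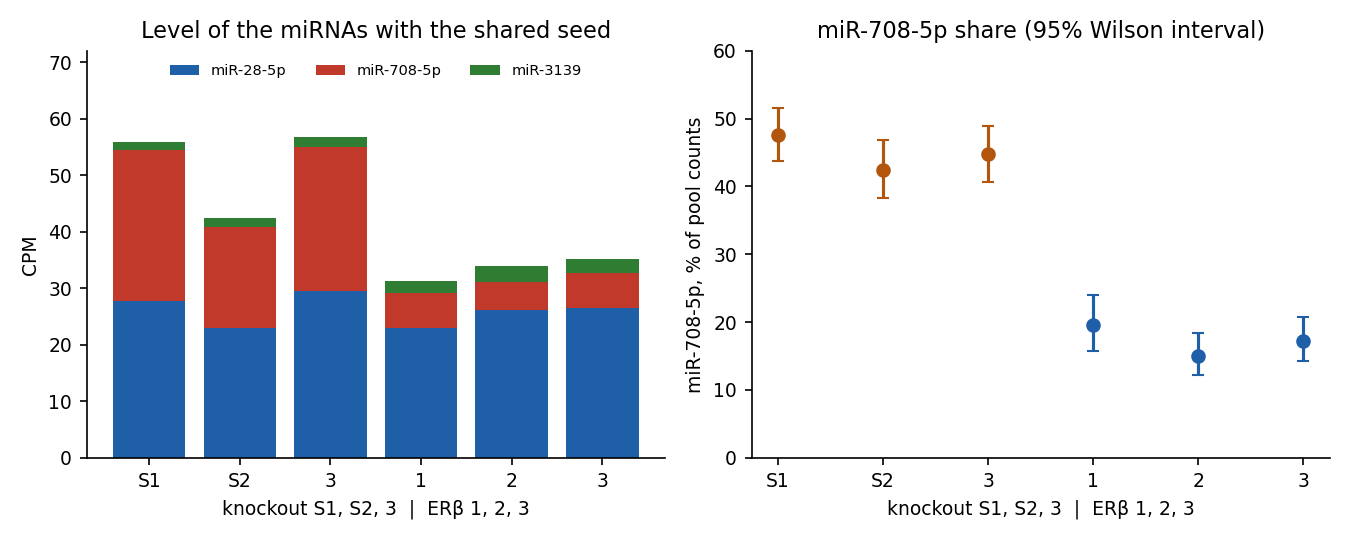
Left, level in CPM of the 3 miRNAs with the shared seed, stacked, in each library: the pool reached 42.4 to 56.8 CPM in knockout and 31.4 to 35.2 CPM in ERβ libraries. Right, the share of pool counts from miR-708-5p with its 95% Wilson interval (counting error only), 42.5 to 47.6% in knockout and 15 to 19.5% in ERβ libraries.

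The miR-151 names form a family with miR-28 in miRBase. The RefSeq hairpin of miR-151b, chr14:100109419-100109514 on the minus strand of GRCh38.p14, is shown with the letters of the miR-708-5p seed in capitals, because its deposited values, with those of miR-151a-5p, sum with miR-28-5p to whole numbers in 5 of 6 libraries.
MIR151B hairpin: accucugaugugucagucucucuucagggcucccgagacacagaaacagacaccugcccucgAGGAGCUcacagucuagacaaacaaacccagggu
miR-28-5p was the single member with counts that were not whole, in 4 of 6 libraries. It had 304.83, 277, 290.5, 255, 390.33 and 393.33 expected counts in the order of the libraries above. Such values occur where a read is divided among several names. The sum of miR-28-5p, miR-151a-5p and miR-151b was whole within 0.03 in those 5 libraries, for example 8072.99 in S1 and 10429.99 in ERβ library 2, and 8722.5 in S2. Of 40755 pairs of other names with decimals, this was the 1 pair whose sum with miR-28-5p was whole in at least 5 libraries. In ERβ library 1 miR-28-5p was itself whole and the decimals of the miR-151 names summed to a whole number, so 4 of these libraries bear on miR-28-5p. The decimals do not tell how many reads were divided. miR-151a-5p was the larger of these, at 718 ± 45.2 CPM in knockout cells (SD, n = 3). miR-708-5p, miR-708-3p, miR-28-3p and miR-3139 had whole counts in all 6 libraries.

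Of the 8 sequence relatives, members included, 7 were tested, 0 were called higher and 1 lower, where 9.83% and 13.3% of all tested miRNAs were. The 1 called lower was miR-708-5p, which was selected on this contrast. Without the members the counts were 0 and 0 of 4. The median log2 fold change of the relatives, members included, was -0.07 against -0.01 over all tested miRNAs. miR-151a-3p, the most abundant at 10597 ± 581 and 10177 ± 210 CPM (SD, n = 3 each), was at -0.06 ± 0.07, and miR-151a-5p at -0.07 ± 0.08. miR-151b was at -0.36 ± 0.13 and did not pass (edgeR, Benjamini-Hochberg adjusted p = 0.0690). It passed without knockout library S2 (0.0468). The lower count was then 2. It was also 2, with miR-708-3p as the other, without a filter on low counts and without knockout library 3 or ERβ library 3, where miR-708-3p entered the fit. miR-3139 was the 1 relative called higher with upper-quartile scaling or library totals.

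Few miRNAs lie near the members' hairpins. Within 2 Mb of miR-708 is miR-5579, whose hairpin is 20060 bases away, and its strands had 1 count in all 6 libraries together, in S1. Within 2 Mb of miR-28 are miR-944, 1141056 bases away, and miR-1248, 1902004 bases away and derived from a small nucleolar RNA. miR-944 was at 0.06 ± 0.30 and did not pass (edgeR, Benjamini-Hochberg adjusted p = 0.907). miR-1248 fell from 227 to 106 summed counts (-1.38 ± 0.24, edgeR adjusted p = 0.00320), also under all 14 alternatives in which it was tested.

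Endoplasmic reticulum stress was looked at because CHOP induces miR-708. Of 22 listed miRNAs 19 were tested, miR-708-5p among them, and 3 were higher and 4 lower, with a median log2 fold change of 0.01, where 9.83% and 13.3% of all tested miRNAs were higher and lower and their median was -0.01. Without miR-708-5p the counts were 3 and 3 of 18. The 4 most abundant did not pass: miR-93-5p (0.21 ± 0.13) and miR-25-3p (0.18 ± 0.07), both of a cluster repressed by the stress kinase PERK, miR-29a-3p (0.13 ± 0.06) and miR-34a-5p (-0.11 ± 0.06), which the stress sensor IRE1 degrades. miR-34a-5p took the opposite sign under 2 alternatives. miR-93-5p, miR-25-3p and miR-29a-3p passed without knockout library S2. miR-25-3p and miR-29a-3p also passed under upper-quartile scaling, library totals and the filter of 10 CPM in 3 libraries, and miR-93-5p without a filter on low counts.

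The called members of that list lay in both directions and are named after their values were seen. Beside miR-708-5p, the lower ones were miR-424-5p (-1.09 ± 0.08), miR-503-5p (-0.68 ± 0.13) of the same cluster, and miR-211-5p (-0.78 ± 0.21), which PERK induces and which represses CHOP. The higher ones were miR-379-5p (1.11 ± 0.15) and miR-494-3p (0.84 ± 0.14) of the imprinted 14q32 cluster, and miR-17-5p (0.40 ± 0.11). miR-211-5p went from 4.82 ± 0.607 to 2.78 ± 0.661 CPM (SD, n = 3 each; edgeR, Benjamini-Hochberg adjusted p = 0.0290). It lost its call without knockout library 3 (0.0792), ERβ library 1 (0.122) or ERβ library 3 (0.129), and with library totals (0.0620) or upper-quartile scaling (0.0504). miR-17-5p lost it without knockout library S1 (0.0643) or ERβ library 1 (0.0819), 2 (0.0681) or 3 (0.134). The list had 7 higher without knockout library S2, and 2 without knockout library S1 or any 1 of the ERβ libraries.

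Among miRNAs known to suppress breast cancer metastasis, which hold miR-708-5p and miR-28-5p, 15 of 16 were tested, 2 were higher and 6 lower, and the median was -0.11, against 9.83% higher, 13.3% lower and a median of -0.01 over all tested miRNAs. Without the members the counts were 2 and 5 of 13. Of the 4 most abundant, miR-126-3p, an inhibitor of endothelial recruitment, was at -0.30 ± 0.06 (edgeR, Benjamini-Hochberg adjusted p = 0.00795) and miR-203a-3p, a keratinocyte differentiation miRNA, at -0.25 ± 0.06 (0.0202). miR-30a-5p (0.07 ± 0.06) and miR-34a-5p (-0.11 ± 0.06) did not pass, and miR-30a-5p passed with upper-quartile scaling or library totals. miR-126-3p lost its call without ERβ library 1 (0.0746) or 2 (0.0701), and miR-203a-3p without knockout library S1 (0.0634) or 3 (0.0679) or ERβ library 1 (0.124), 2 (0.105) or 3 (0.0761). With library totals the adjusted p was 0.0951 for miR-126-3p and 0.217 for miR-203a-3p in edgeR, with upper-quartile scaling 0.0525 and 0.129, and without a filter 0.146 for miR-203a-3p. Both lists were chosen with earlier results known and are no independent evidence of a direction.

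**Figure D5:**
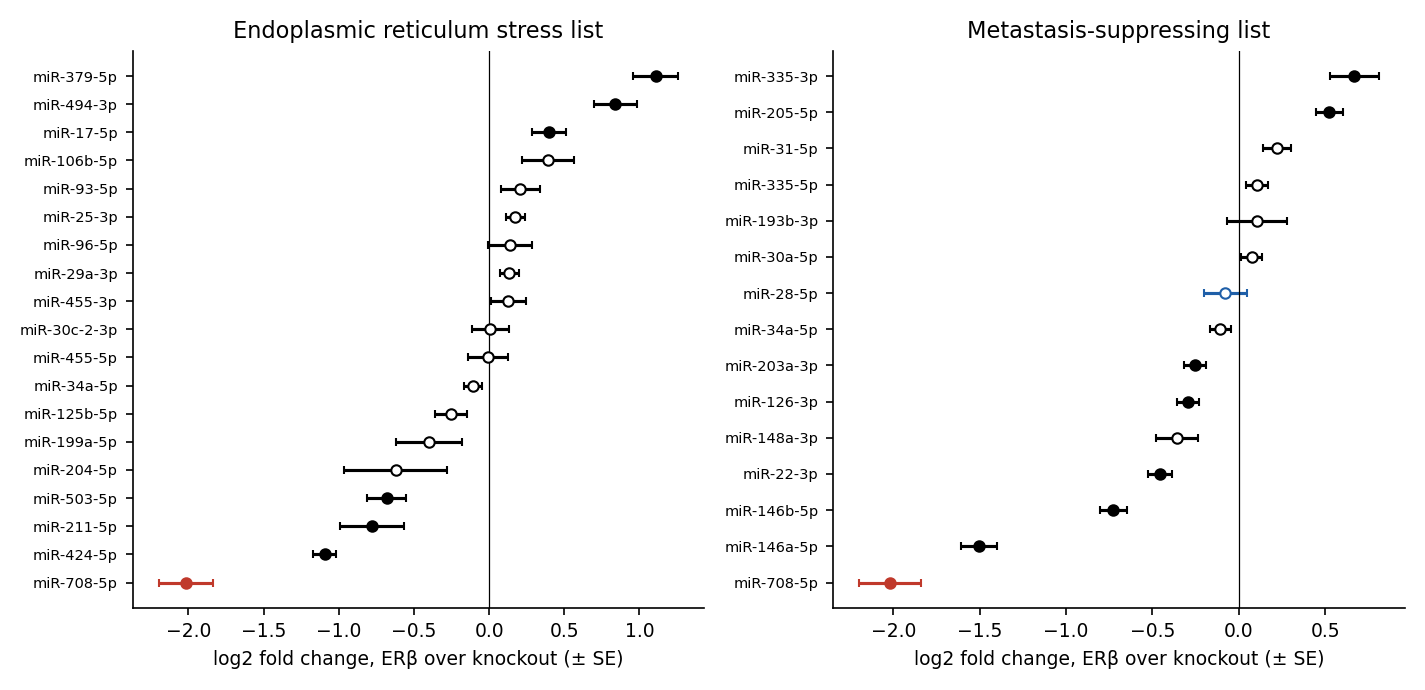
Log2 fold changes, ERβ over knockout, with SE, of the tested miRNAs in the endoplasmic reticulum stress and metastasis-suppressing lists, ordered by value. Filled points passed an adjusted p of 0.05 in edgeR and open points did not. miR-708-5p (red) is the lowest of both lists at -2.02, and miR-28-5p (blue) lies at -0.08, a sign that turns with upper-quartile scaling or library totals.

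The profile of miR-708-5p over the 6 libraries was compared with those of 389 other tested miRNAs averaging at least 10 CPM, each as log2 CPM centred on its own mean. The measure was the root mean square difference, which reads the group difference and the spread together. For miR-708-5p that group difference is the one it was selected on, so its nearest profiles in part restate the selection. The nearest were miR-146a-5p (0.32), miR-10a-5p (0.42), miR-767-5p (0.44), miR-105-5p (0.44) and miR-363-3p (0.45), where the median of all compared was 1.01. miR-146a-5p was at 65.8, 63.5 and 64.1 CPM in knockout and 24.0, 23.7 and 20.6 CPM in ERβ libraries, with the knockout libraries close together. miR-10a-5p, at 5016, 4146 and 5225 CPM and then 2201, 2140 and 1989 CPM, was lowest among knockout libraries in S2, as were miR-708-5p and miR-363-3p (183, 156 and 192 CPM). S2 was instead the highest knockout library for miR-767-5p (139, 184 and 141 CPM) and miR-105-5p (87.1, 103 and 99.2 CPM). Without S2 these remained the 5 nearest, at 0.35, 0.44, 0.45, 0.48 and 0.48 in the order above, against a median of 1.05. For miR-28-5p the nearest were miR-126-5p (0.03), miR-148b-5p (0.03) and miR-196a-5p (0.04), against a median of 0.22, and in all of these knockout library S2 was the lowest of the knockout libraries, as for miR-28-5p itself. Without S2 they had ranks 1, 2 and 4, at 0.02, 0.04 and 0.05, against a median of 0.17.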

How the data were processed

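Per the labels' protocols, small RNA libraries of 6 KPL4 samples were made with a QIAseq miRNA kit. The submitters' processing notes name FastQC, Trim Galore and GRCh38. Aligner, counter, rule for shared reads and handling of molecular identifiers: not given in the sources used here. Expected counts per mature miRNA were deposited by the authors, without scaling. 2 knockout columns carry the same replicate number and are known by group only.

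Expected counts were rounded and fitted once over all 6 libraries in edgeR 4.0.16 (R 4.3.3): filterByExpr (minimum count 10, minimum total 15), TMM, robust quasi-likelihood test, Benjamini-Hochberg adjustment over 783 miRNAs at 0.05. Standard errors are the absolute log2 fold change divided by the root of the F statistic. Strand ratios within libraries used unrounded counts plus 0.5 and exact sign-flip permutation tests (n = 6), adjusted over 4 ratios. Only the ratio of the miR-28 strands is given with its p, since the others contain miR-708 strands. The fit was also run on counts simulated from its own mean levels and dispersions. That simulation had no outlying library, so it does not show how the fit behaves with a library such as S2. Intervals are 95% (Wilson, exact Poisson or exact binomial) and cover counting error only. 3 counts correspond to 0.201 to 0.305 CPM. log2 CPM used a prior count of 2. Figures used matplotlib 3.10.9. Alternatives were DESeq2 1.42.0 and limma 3.58.1 (voom), other scalings, filters, left-out libraries and a replicate block.

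The members and lists were chosen with earlier results of these data known. Named were the members, names with the same seed, the 4 most abundant of each list, miRNAs within 2 Mb and the 5 (miR-708-5p) or 3 (miR-28-5p) nearest profiles. Others are said to be named after their values were seen. The mature miR-28-5p sequence was not used here.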

Additional observations from a re-analysis of the deposited data

How the results depend on the processing

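miR-708-5p had a log2 fold change of -2.18 to -1.86 under 15 alternatives, a description of the member selected on it, and the pooled rate ratio of miR-708-3p kept its sign under 11 (-1.78 to -1.32). Neither miR-28 strand was called under any of 15. miR-28-5p took the values 0.033 under upper-quartile scaling and 0.079 under library totals, and ranged from -0.17 to 0.012 with a library left out. miR-28-3p took 0.037 and 0.077, and ranged from -0.13 to 0.049. Over all miRNAs 123 were higher with upper-quartile scaling, 146 higher and 61 lower with library totals, and 66 lower with the filter of 10 CPM in 3 libraries. With a library left out 49 to 122 were higher and 58 to 157 lower. Sequence relatives had 1 higher and a median of 0.037 with upper-quartile scaling, 1 and 0.079 with library totals, 2 lower without a filter, and 1 to 2 lower with a library left out. The stress list had 5 higher and a median of 0.12 with upper-quartile scaling, 6 and 0.16 with library totals, 5 and 0.056 without a filter, and 5 and 0.17 with the filter of 10 CPM. With a library left out it had 2 to 7 higher and a median of -0.036 to 0.045. The metastasis-suppressing list had 5 higher and a median of 0.0051 with upper-quartile scaling, 5 and 0.049 with library totals, and a median of -0.17 to -0.076 with a library left out. The cause of these changes was not tested.

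With 5 libraries the exact sign-flip permutation test cannot go below p = 0.0625, so leaving out a library loses the call of the miR-28 strand ratio by construction. The mean log2 ratios then ranged from 3.82 to 4.12 (miR-708 strands), 5.16 to 5.30 (miR-28 strands), 0.93 to 1.39 (5p strands) and 10.22 to 10.62 (3p strands). Depth limits miR-708-3p and miR-3139, with at most 41 counts per library. The columns carry the numbers 1, 1 and 3 for knockout and 1, 2 and 3 for ERβ libraries, and nothing says that a number marks a shared culture or day. Deviations of same-numbered libraries correlated at -0.096 (S1), 0.13 (S2) and 0.12 (number 3), and S1 correlated best with ERβ library 2. With the number as a replicate block, in which ERβ library 2 stands alone, 38 miRNAs were called higher and 50 lower. The log2 fold changes were -1.95 for miR-708-5p, -0.14 for miR-28-5p and -0.052 for miR-28-3p, and miR-17-5p, miR-126-3p and miR-203a-3p did not pass.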
